A study of Arabidopsis thaliana with 6 samples.

Results

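Plant mitochondria report their state to the nucleus by a pathway called mitochondrial retrograde signalling. When respiration is inhibited or reactive oxygen builds up, membrane-bound NAC transcription factors such as ANAC017 are released from the endoplasmic reticulum, enter the nucleus and raise a set of nuclear genes that includes the alternative oxidase gene AOX1A, the usual marker of the response. Described here are 9 genes of that response, chosen by name: UPOX (AT2G21640), AT12CYS (AT5G09570), AT2G41730, AT5G43450, AOX1A (AT3G22370), NDB4 (AT2G20800), BCS1 (AT3G50930), AT5G54100 and UGT74E2 (AT1G05680). Of these 9 genes, 5 have a probe set annotated to that locus alone, 1 each, and such genes are called measured below. The other 4 have none listed in the annotation used here and were not analysed. They are AOX1A, BCS1, which encodes an AAA-type ATPase of the outer mitochondrial membrane, AT5G54100, which encodes the stomatin-like protein SLP2, and UGT74E2, which encodes a glucosyltransferase acting on the auxin indole-3-butyric acid. The results below therefore do not include the usual marker of the response. In all, 22746 probe sets were tested, and 13286 loci have at least 1 probe set of their own.

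Transcripts were measured on 6 Affymetrix arrays, each from whole Arabidopsis thaliana seedlings, 14 days old, in the Col-0 background. All 6 samples, the controls included, came from stable transgenic T3 seedlings that make the chimeric factor XVE constitutively and carry RPX∆C behind a LexA promoter. Estradiol lets XVE enter the nucleus and switch on RPX∆C, which derives from RPX, a transcription factor of the NAC family. The estradiol group (n = 3) received 10 µM estradiol for 2 h in liquid medium, and the mock group (n = 3) received ethanol according to one label and medium without inducer according to another. The study asks for direct targets of RPX, by way of transcripts that change early after induction. There is no line without the transgene among the samples, so RPX∆C and estradiol itself cannot be told apart, and the labels do not say how many independent transgenic lines were used. In whole seedlings, fewer cells that express a gene and less RNA per cell cannot be told apart either.

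Leaf and root transcripts were present on all 6 arrays. The summed intensity of the 3 measured shoot markers of 5 listed, genes of the light-harvesting protein LHCB4, lay between 4870 and 5523 with estradiol and between 5066 and 6060 in mock. That of the 2 measured root markers of 4 listed (PYK10 and EXPA18) lay between 1651 and 2569 with estradiol and between 2468 and 2636 in mock. PYK10 makes up nearly all of this sum, and its groups overlapped. The dim EXPA18 gave 29.6, 22.4 and 29.5 in mock replicates 1, 2 and 3 and 20.6, 17.8 and 21.8 with estradiol. Its groups did not overlap (limma adjusted p = 0.606), where 7.74% of all probe sets had every estradiol value below every mock value. Some arrays stood apart in control signals. On estradiol replicate 3 the ratio of 3' to 5' signal of the actin control, which rises as RNA degrades, was 15.2, while the other 5 arrays lay between 4.37 and 6.11. A second actin control set gave 15.9 there and 6.87 to 12.8 elsewhere. The 25S ribosomal RNA control was low on mock replicates 1 and 2 (302 and 286), with 918 to 1534 on the other 4 arrays.

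None of the 5 measured retrograde response genes passed limma's test at an adjusted p (Benjamini-Hochberg) under 0.05, whether higher or lower after estradiol. Over all 22746 probe sets, 0.114% were called higher (26 probe sets) and 0 were called lower. All 5 genes had a positive log2 difference, as had 42.9% of all probe sets, and their median was 0.27, against -0.03 over all probe sets. At an unadjusted limma p under 0.05, 1 of the 5 was higher (UPOX) and 0 were lower, where 3.96% of all probe sets were higher and 4.58% lower. For each of the 5 genes the estradiol values overlapped the mock values; of all probe sets, 5.79% had every estradiol value above every mock value and 7.74% had every one below. The genes were listed with earlier results of these data known, so these counts are descriptions.

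**Figure D1:**
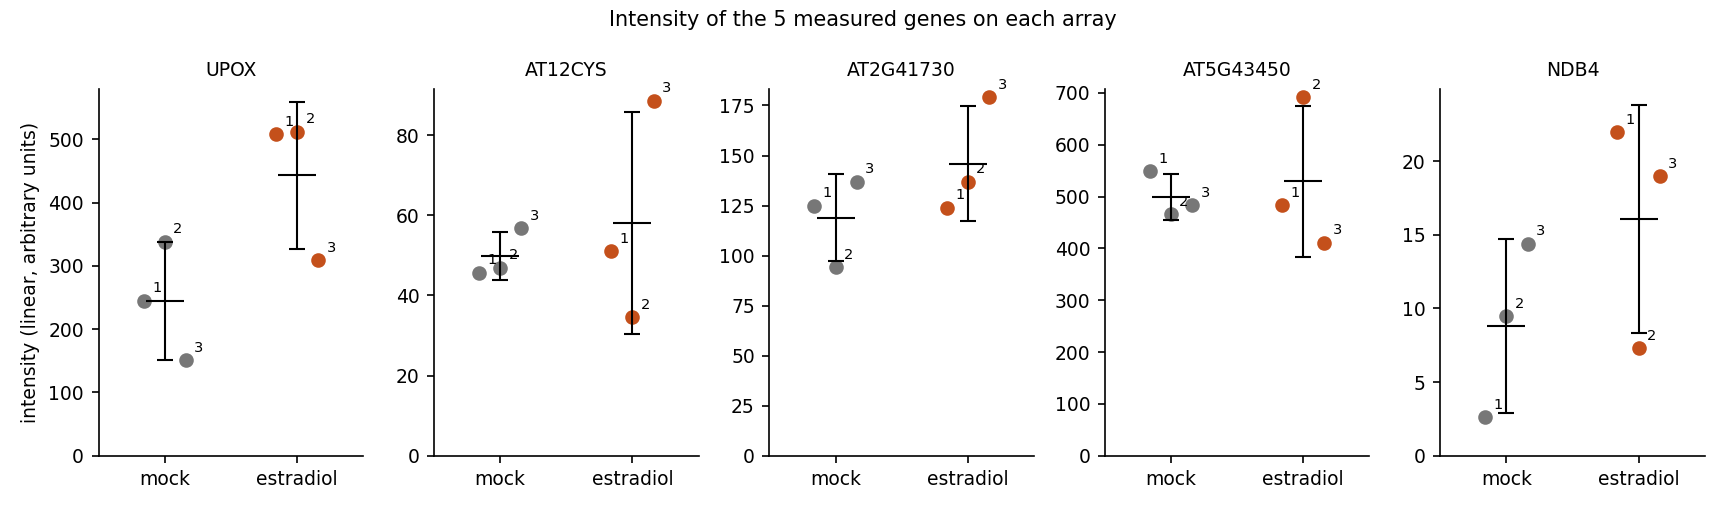
Intensity on a linear scale (y axis, arbitrary units, from 0) of UPOX, AT12CYS, AT2G41730, AT5G43450 and NDB4 in mock (grey) and estradiol (orange) samples. Each point is 1 array with its replicate number, the black bars are the mean ± SD (n = 3), and the groups overlap for each of the 5 genes.

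UPOX, named for its induction by oxidative stress, encodes a small mitochondrial protein and is among the most widely used reporters of the response. Its deposited intensity in replicates 1, 2 and 3, an order kept for every gene below, was 245, 338 and 151 in mock, and with estradiol it was 508, 512 and 309. Estradiol replicates 1 and 2 lay above all 3 mock arrays, while estradiol replicate 3 lay below mock replicate 2. Replicate 3 was the lowest array of UPOX in each group. The mean was 244 ± 93.5 in mock and 443 ± 116 with estradiol (SD, n = 3 each), a ratio of 1.81. On the scale of log2(intensity + 16) the difference was 0.85 ± 0.31 SE, with a 95% interval from 0.11 to 1.59 and a limma adjusted p of 0.528. An exact two-sided permutation test of the 3 against 3 arrays gave p = 0.2, where the smallest p this design allows is 0.1. Of all probe sets, 0.642% had a higher log2 difference. By limma's p-value UPOX ranked 1265 among the 22746.

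The UPOX difference kept its sign whichever array was left out, but its size depended on the arrays of both groups. It was 0.56 without mock replicate 3, the array where UPOX was lowest, and 1.10 without mock replicate 2, where the mock value was highest. Against mock replicate 3 as the only control it was 1.43. Without estradiol replicate 3, the array with the raised actin ratio, it was 1.08 (limma adjusted p = 0.456), so the difference was larger without that array. In each of these fits UPOX stayed short of the threshold.

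NDB4 encodes an external type II NAD(P)H dehydrogenase, an enzyme of the inner mitochondrial membrane that passes electrons to ubiquinone without pumping protons and so feeds the same non-phosphorylating route that the alternative oxidase drains. Its intensity was 2.62, 9.47 and 14.4 in mock and 22, 7.3 and 19 with estradiol. Estradiol replicates 1 and 3 lay above all mock arrays, and estradiol replicate 2 lay below mock replicates 2 and 3. On 4 of the 6 arrays the intensity was under 16, the constant added before taking logarithms, and detection calls were not used here, so whether NDB4 was above background is not known. The log2 difference was 0.37 ± 0.245 SE (95% interval -0.21 to 0.95, limma adjusted p = 0.724). It was 0.17 without mock replicate 1 and 0.58 without estradiol replicate 2. With 1 in place of 16 as the added constant it was 0.90, so its size rests on that setting.

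AT2G41730 encodes a protein of unknown function. Its intensity was 125, 94.3 and 137 in mock and 124, 137 and 179 with estradiol. Only estradiol replicate 3 lay above all mock arrays, and only mock replicate 2 lay below all estradiol arrays. The mean was 119 ± 21.9 in mock and 146 ± 28.7 with estradiol (SD, n = 3 each), and the log2 difference was 0.27 ± 0.176 SE (95% interval -0.15 to 0.69, limma adjusted p = 0.718). It was 0.13 without mock replicate 2 and 0.13 without estradiol replicate 3. The suffix of its probe set (x_at) marks probes that can also match other transcripts, so this signal may not come from AT2G41730 alone.

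AT12CYS encodes a small protein with paired cysteine motifs of the kind found in proteins imported into the space between the mitochondrial membranes. Its intensity was 45.7, 46.9 and 56.7 in mock and 51, 34.6 and 88.6 with estradiol. The estradiol arrays held both the highest and the lowest of the 6 values, so the spread within that group (SD 27.7, against 6.01 in mock) exceeded the difference of the means, 49.8 and 58.1. The log2 difference was 0.11 ± 0.254 SE (95% interval -0.49 to 0.71, limma adjusted p = 0.939). The highest value came from estradiol replicate 3, which also has the raised actin ratio, and without it the difference was -0.17. The part of RNA quality in this value was not tested.

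AT5G43450 encodes a dioxygenase of the 2-oxoglutarate- and iron-dependent family. Its intensity was 549, 466 and 483 in mock and 483, 692 and 411 with estradiol. Again the estradiol arrays held both the highest value (replicate 2) and the lowest (replicate 3). The mean was 499 ± 44.2 in mock and 529 ± 146 with estradiol (SD, n = 3 each). The log2 difference was 0.05 ± 0.193 SE (95% interval -0.41 to 0.51, limma adjusted p = 0.969), and it was -0.16 without estradiol replicate 2.

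**Figure D2:**
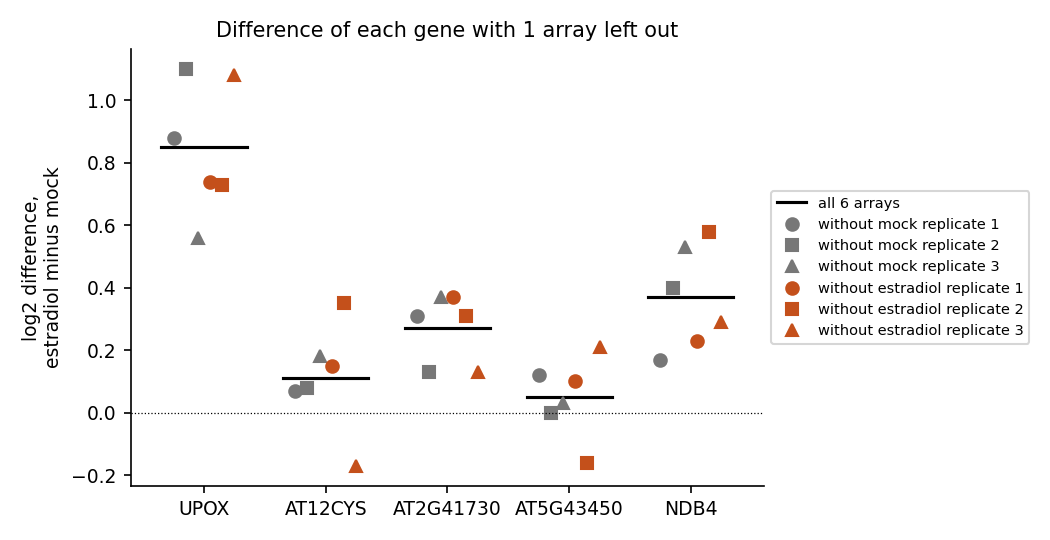
Log2 difference, estradiol minus mock (y axis, log2(intensity + 16)), of each of the 5 genes with all 6 arrays (black line) and with each array left out in turn (points, grey for a mock array and orange for an estradiol array). UPOX stays between 0.56 and 1.10, while AT12CYS falls below 0 without estradiol replicate 3 and AT5G43450 falls below 0 without estradiol replicate 2.

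Ordered by difference in log2(intensity + 16), UPOX (0.85) came first, then NDB4 (0.37), AT2G41730 (0.27), AT12CYS (0.11) and AT5G43450 (0.05). The 95% intervals of all 5 overlap one another on this scale. Differences between genes were not tested, so the order is a description. The place of the dim NDB4 depended on the added constant: with 1 it was level with UPOX (0.90 and 0.89), and with 64 it lay below AT2G41730 (0.14 and 0.20). The upper bounds on this scale were 0.51 for AT5G43450, 0.69 for AT2G41730, 0.71 for AT12CYS and 1.59 for UPOX. That of NDB4 is left out here, since its SE was 0.63 with an added constant of 1, 0.245 with 16 and 0.0953 with 64. The bounds given depend on the constant as well. For AT12CYS the SE was 0.346 with 1, 0.254 with 16 and 0.162 with 64. The genes also did not share 1 pattern across arrays. Estradiol replicate 3 was the highest array for AT12CYS and AT2G41730 and the lowest for AT5G43450, while estradiol replicate 2 was the highest for UPOX and AT5G43450 and the lowest for AT12CYS.

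**Figure D3:**
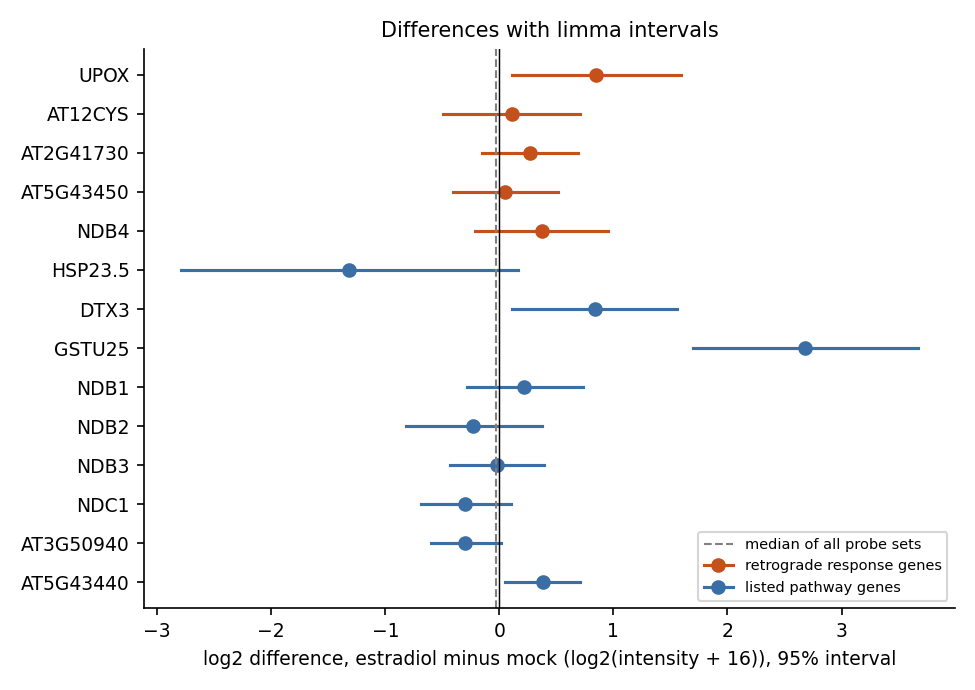
Log2 difference, estradiol minus mock (x axis, log2(intensity + 16)), with the 95% interval from limma for the 5 retrograde response genes (orange) and the 9 measured genes of the pathway lists (blue). The dashed line is the median of all probe sets, -0.03; the intervals of UPOX, DTX3, GSTU25 and AT5G43440 lie above 0.

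Other genes of the pathway were read from 7 lists that hold 54 genes. Of these, 9 were measured, which here means that the annotation used assigns a probe set to that locus alone. The remaining genes could not be matched in this way, so whether the arrays carry probes for them is not known. None of the 9 passed the threshold in limma in either direction, where 0.114% of all probe sets did. At an unadjusted limma p under 0.05, 3 of the 9 were higher (GSTU25, DTX3 and AT5G43440) and 0 lower, where 3.96% and 4.58% of all probe sets were. The lists, too, were chosen with earlier results of these data known, so these counts are descriptions, and enrichment was not tested. Their median log2 difference was -0.02, with 4 positive and 5 negative, where 42.9% of all probe sets were positive. The list of regulators (11 genes, among them ANAC013, ANAC017, ANAC053 and ANAC078) had 0 measured members in this sense. So had those of uncoupling proteins and dicarboxylate carriers (6 genes) and of prohibitins and the stomatin-like protein SLP1 (6 genes). The list of mitochondrial chaperones, proteases and import proteins (8 genes) had 0 as well. This is a limit of the annotation and does not show that the arrays lacked these genes.

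Genes of alternative respiration had no shared direction. Of 10 listed genes 4 were measured, all of them type II NAD(P)H dehydrogenases like NDB4, and 0 were called. NDB1 gave 40.5, 37.8 and 49.9 in mock and 42.2, 41.7 and 79.3 with estradiol (a log2 difference of 0.22, limma adjusted p = 0.81). As with AT12CYS, the highest value was on estradiol replicate 3, and without that array the difference of NDB1 was -0.02. NDB2, an external enzyme often induced together with AOX1A, gave 80.8, 35.2 and 43.7 against 32.6, 51.5 and 40.2 (log2 difference -0.23, limma adjusted p = 0.837). That difference rests on the high mock replicate 1, and it was 0.04 without it. NDB3 was at -0.02, with a sign that changed under 6 of 15 alternatives. NDC1, an enzyme found in mitochondria and chloroplasts, gave 154, 147 and 98.5 against 107, 97.9 and 107 (log2 difference -0.30, limma adjusted p = 0.668). Mock replicate 3 was in the range of the estradiol arrays, and against it as the only control the difference was 0.06. Without mock replicate 3 it was -0.48 (limma adjusted p = 0.271), and without mock replicate 1 it was -0.19.

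The list of other response genes, 3 of 9 measured, held both the highest and the lowest differences of the pathway genes. GSTU25, a tau-class glutathione S-transferase, gave 67.9, 28 and 26.4 in mock and 498, 399 and 178 with estradiol. Every estradiol value lay above every mock value, as for 5.79% of all probe sets. The log2 difference of 2.68 ± 0.416 SE was the highest of all 22746 probe sets, with a limma adjusted p of 0.121. Without estradiol replicate 3 it was 3.10 and passed the threshold (limma adjusted p = 0.0474). With any other single array left out it did not pass, with limma adjusted p from 0.223 to 0.484. DTX3, a transporter of the MATE family, gave 45.8, 43.2 and 73.7 against 140.2, 139 and 61.5 (log2 difference 0.84 ± 0.306 SE, limma adjusted p = 0.529). On estradiol replicates 1 and 2 DTX3 was above all mock arrays, and on estradiol replicate 3 it was below mock replicate 3.

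HSP23.5 (AT5G51440), a small heat shock protein of mitochondria that responds to both heat and mitochondrial inhibition, went the other way. It gave 437, 265 and 68 in mock and 77, 117 and 40.2 with estradiol. Mock replicates 1 and 2, the arrays with the low 25S signal, were higher than all estradiol arrays, while mock replicate 3 lay within the estradiol range. The log2 difference was -1.32 ± 0.622 SE (95% interval -2.79 to 0.16, limma adjusted p = 0.632). It was -2.01 without mock replicate 3 (limma adjusted p = 0.245), -0.80 without mock replicate 1 and 0.08 against mock replicate 3 as the only control, so its size and direction depended on the mock arrays used. The mock arrays that were high for HSP23.5 were also the higher ones for UPOX. The part of whatever set mock replicates 1 and 2 apart was not tested for either gene.

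**Figure D4:**
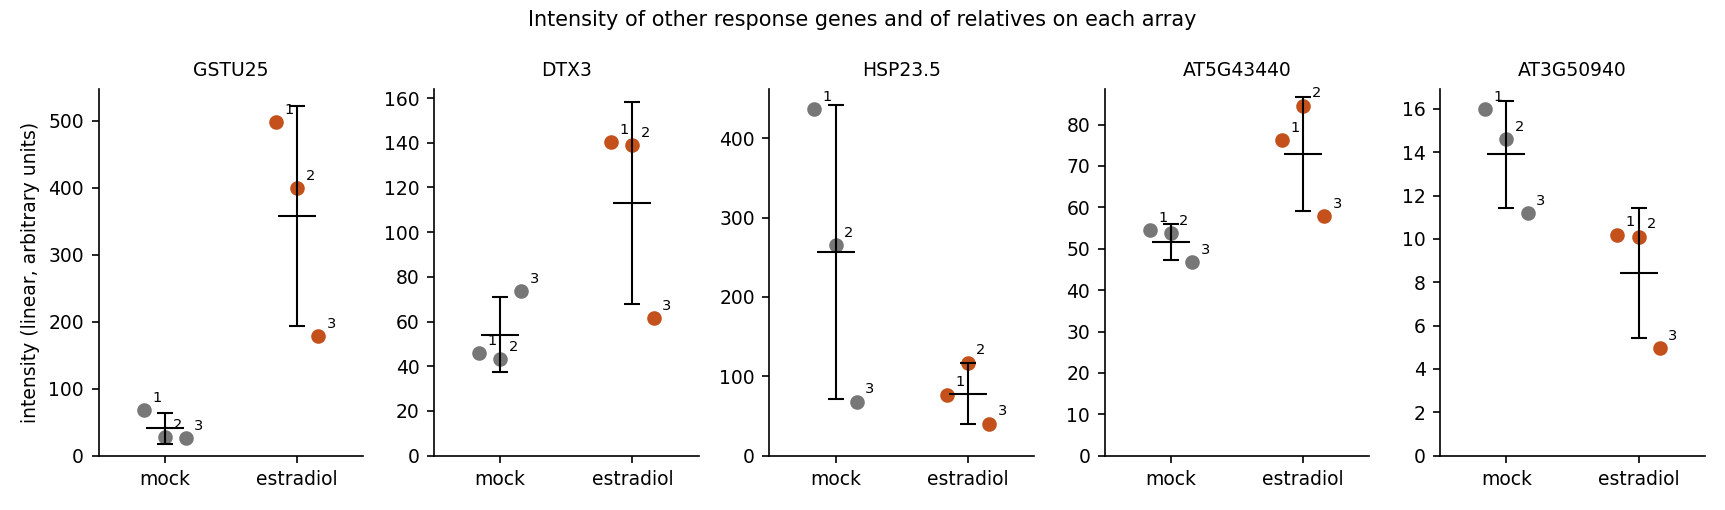
Intensity on a linear scale (y axis, arbitrary units, from 0) of GSTU25, DTX3, HSP23.5, AT5G43440 and AT3G50940 in mock (grey) and estradiol (orange) samples. Each point is 1 array with its replicate number and the black bars are the mean ± SD (n = 3); HSP23.5 was at 437 and 265 on mock replicates 1 and 2 and at 68 on mock replicate 3.

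Close relatives of members were examined where they were measured, in 2 of 4 listed cases. AT5G43440, a dioxygenase gene with no other protein-coding gene between it and AT5G43450 in the TAIR10.1 annotation, gave 54.5, 53.7 and 46.7 in mock and 76.2, 84.6 and 57.9 with estradiol. Here every estradiol value lay above every mock value, as for 5.79% of all probe sets, while the groups of AT5G43450 overlapped. The log2 difference was 0.38 ± 0.139 SE (95% interval 0.05 to 0.71, limma adjusted p = 0.527). Whether the adjacent genes differ in response was not tested, and probes of related genes can share signal. AT3G50940, the neighbour of BCS1 and an ATPase gene of the same family, gave 16, 14.6 and 11.2 against 10.2, 10.1 and 4.96. The log2 difference was -0.30 ± 0.13 SE (limma adjusted p = 0.604). Every estradiol value lay below every mock value, as for 7.74% of all probe sets. All 6 AT3G50940 values were under the added constant of 16, so they may lie at background. It does not stand in for BCS1.

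Genes with the most similar array profiles were sought for the 3 members whose log2 values spanned more than 1 unit over the 6 arrays, among 5092 genes with a mean intensity of at least 50. Likeness was the root mean square difference between profiles centred on each gene's mean, in log2 units over 6 arrays. With so many genes and so few arrays, near matches arise readily, and the measure is a description. The nearest profiles to UPOX were those of AT1G02470 (0.184), SAY1 (AT4G11740, 0.212) and AT5G53420 (0.223). AT1G02470 gave 49.6, 79.6 and 39.7 in mock and 119, 167 and 69.6 with estradiol, with a log2 difference of 0.87 (limma adjusted p = 0.527). AT1G02470 was picked to match UPOX, so its log2 difference and its order, with replicate 3 lowest in each group, follow from that choice. SAY1 and AT5G53420 had log2 differences of 0.59 and 0.69 (limma adjusted p = 0.555 and 0.45).

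The profiles nearest to AT12CYS belonged to WLIM2a (AT2G39900, 0.0456), which encodes a LIM-domain protein that binds actin, to AT5G23610 (0.0595) and to AT5G48900 (0.0737). These distances are smaller than those for UPOX, but the measure grows with a gene's own span. That span was 1.05 log2 units for AT12CYS and 1.66 for UPOX, so the distances of different members cannot be compared. Like AT12CYS, which they were picked to match, all 3 were highest on estradiol replicate 3. Their differences between groups were small, at 0.12, 0.04 and 0.09. The profiles nearest to NDB4 were those of AT1G29980 (0.122), AT2G10940 (0.124) and AT2G37120 (0.136), with log2 differences of 0.50, 0.40 and 0.33. None of the 3 passed the threshold (limma adjusted p = 0.581, 0.718 and 0.738). NDB4 itself was under the added constant of 16 on 4 arrays, so the profile being matched may lie at background.

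**Figure D5:**
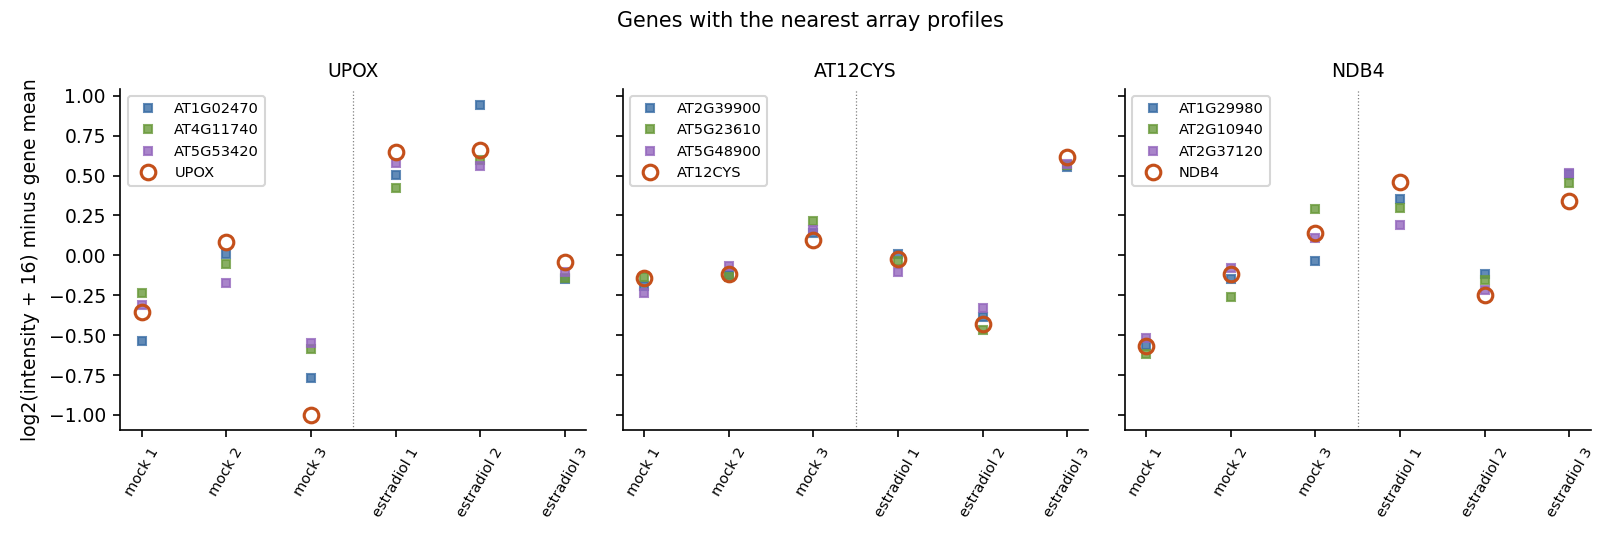
Log2(intensity + 16) minus each gene's mean over the 6 arrays (y axis) on each array (x axis) for UPOX, AT12CYS and NDB4 (open orange circles) and the 3 genes with the nearest profiles (filled squares). For UPOX mock replicate 3 is the lowest point, and for AT12CYS estradiol replicate 3 is the highest.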

How the data were processed

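The values analysed are linear intensities that the authors deposited, with a single value for each probe set on each array. GCOS and affy appear per the submitters' processing notes without version or role; how probes were summarised is not stated there. All arrays share a 2% trimmed mean of 100.01, so a change of total transcript per seedling cannot be seen. Between 31.1% and 36% of probe sets per array lay under 16. The number of arrays limits the precision.

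After removal of 64 control probe sets, log2(intensity + 16) of the remaining 22746 was fitted without a filter in limma 3.58.1 under R 4.3.3 (lmFit, eBayes, group only, two-sided), with Benjamini-Hochberg adjustment over all of them. Differences of dim probe sets are understated on this scale. Loci were assigned by matching the platform annotation's Entrez IDs to TAIR10.1; 13513 probe sets have 1 gene, 503 several and 8730 none listed. The files name no genome build, so coordinates are not given.

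Members, lists and tests were chosen with earlier results of these data known. Named are all members, all measured genes of the 7 lists, and the 3 nearest profiles of each member spanning more than 1 log2 unit. The labels call the samples biological replicates. Deviations of same-numbered arrays correlated at 0.0908, 0.113 and 0.329. The first is not over 0.1, the cut used here, so the main fit did not treat numbers as pairs. Differently numbered arrays were not compared, so this check does not decide whether the replicates were paired. Alternatives changed the block, scaling, filter, variance model, array weights, added constant and arrays used. The fit was tested on simulated data with independent noise, where differences were added only to brighter probe sets. Those differences were larger than that of any member, so the test did not cover smaller ones or dim genes. Plots: matplotlib 3.10.9, Python 3.11.15.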

Additional observations from a re-analysis of the deposited data

How the results depend on the processing

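Each result was recomputed under 15 alternatives. The number of the 5 measured members past the threshold was 0 in all of them, with limma adjusted p from 0.165 to 0.886 for UPOX. The members' differences kept their sign in 71 of 75 values. The exceptions were AT12CYS without estradiol replicate 3 (-0.17), with replicates 1 and 2 of both groups only (-0.10) and with mock replicate 3 as the only control (-0.04), and AT5G43450 without estradiol replicate 2 (-0.16). With 1 array left out the differences ranged from -0.17 to 0.35 for AT12CYS and from -0.16 to 0.21 for AT5G43450, and the members' median from 0.13 to 0.37. With the replicate number as a block, UPOX kept 0.85 (SE 0.134, limma unadjusted p = 0.000989, adjusted p = 0.165). The pairing check does not decide whether that block is warranted.

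Of the 9 other listed genes, 1 passed, GSTU25, with the replicate block, without the dimmest 25% of probe sets, with an intensity trend and with array weights (1 in each), and 0 to 1 with 1 array left out. Reversed signs were those of HSP23.5 (0.08) and NDC1 (0.06) against mock replicate 3 alone, NDB1 without estradiol replicate 3 (-0.02) and NDB2 without mock replicate 1 (0.04); with 1 array left out these ranged from -0.02 to 0.35 for NDB1 and from -0.42 to 0.04 for NDB2. NDB3 turned to 0.02 with quantile normalization and with array weights, to 0.04 with replicates 1 and 2 only and to 0.01 against mock replicate 3, and it ranged from -0.17 to 0.14 with 1 array left out.

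Over all probe sets, 26 calls became 17 with the replicate block, 97 without the dimmest 25%, 51 with an intensity trend, 92 with array weights, 11 with an added constant of 64, and 0 to 57 with 1 array left out. Calls by limma fell to 0 with an added constant of 1, with replicates 1 and 2 only and with mock replicate 3 as the only control, where 1646, 2712 and 1209 were under an unadjusted p of 0.05. That last fit has 1 control, assumed to vary like the estradiol group. The cause of these shifts was not tested. Without detection calls, signal over background limits NDB4 and AT3G50940 most.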
